A study of Mus musculus with 6 samples.

Results

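The 9 hypoxia response genes described here are Ankrd37, Hif1a, Epas1, Egln1, Egln3, Vegfa, Car9, Adm and Ndrg1, taken by gene symbol from a table of 23036 mouse genes. They were brought together because Ankrd37 was high in 1 liver library, named S1 in the labels, and the question was whether other hypoxia targets shared that height. The level of Ankrd37 in that library therefore chose the set and is given as a description, with no test. Liver RNA came from female mice that were 8 weeks old when a 20-week western diet began, and the mice carried either floxed Hkdc1 alleles (HKDC1 fl/fl, here flox) or a liver-specific Hkdc1 knockout (HKDC1 LKO, here LKO). All 6 libraries were from mice on that diet, and the Cre driver of the knockout, the strain and the number of mice per library are not stated in the sources. Nothing says that the libraries came from separate animals, so the p-values cover the spread among these libraries only, and that spread may be technical.

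By the genotype field of the labels there were 3 flox and 3 LKO libraries, numbered here in accession order, so that S1 is flox 1. The title of flox 3 names LKO and the title of LKO 1 names flox. Comparisons of genotype were therefore made 3 times: by the genotype field, in the 4 libraries whose labels agree (flox 1, flox 2, LKO 2 and LKO 3), and by the titles. Library names always follow the genotype field.

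Cells sense low oxygen through the hypoxia-inducible factors. In normal oxygen, prolyl hydroxylases (Egln genes) mark the alpha subunits for destruction through the von Hippel-Lindau protein, and in low oxygen the subunits escape this, pair with Arnt and bind short promoter and enhancer elements. Their targets include blood vessel growth factors, glucose transporters and glycolytic enzymes, the kidney and liver hormone erythropoietin, and some of the hydroxylases themselves, which form a feedback loop. In the liver, oxygen falls from the portal to the central side of the lobule.

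Promoters of 7 of the 9 genes matched by symbol in the RefSeq promoter table (GRCm38.p6, 250 bases before to 50 after each annotated start). Epas1 and Ndrg1 are named only. The 4 sequences below are those of 3 genes that were highest in flox 1 (Ankrd37, Egln3 and Adm) and of Car9, which was not. Each is written on the gene's own strand, and capitals mark the core of the hypoxia response element, ACGTG or GCGTG, on either strand (CACGT and CACGC are the same letters read on the other strand, and CACGTG counts once on each strand).
Ankrd37 (chr8:45999801-46000100, minus strand): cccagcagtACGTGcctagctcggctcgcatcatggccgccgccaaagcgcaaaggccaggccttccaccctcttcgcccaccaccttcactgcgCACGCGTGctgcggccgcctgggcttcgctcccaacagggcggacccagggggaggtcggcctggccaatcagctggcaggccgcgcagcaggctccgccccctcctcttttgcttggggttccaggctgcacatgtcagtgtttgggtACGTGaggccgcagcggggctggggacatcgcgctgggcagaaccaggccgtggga
Egln3 (chr12:54203825-54204124, minus strand): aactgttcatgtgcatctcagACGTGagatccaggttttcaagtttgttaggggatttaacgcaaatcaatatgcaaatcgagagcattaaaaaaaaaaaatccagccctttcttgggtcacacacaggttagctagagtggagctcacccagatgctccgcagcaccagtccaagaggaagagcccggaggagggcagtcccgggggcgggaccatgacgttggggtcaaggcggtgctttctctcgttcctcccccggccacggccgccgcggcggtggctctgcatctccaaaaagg
Adm (chr7:110627407-110627706, plus strand): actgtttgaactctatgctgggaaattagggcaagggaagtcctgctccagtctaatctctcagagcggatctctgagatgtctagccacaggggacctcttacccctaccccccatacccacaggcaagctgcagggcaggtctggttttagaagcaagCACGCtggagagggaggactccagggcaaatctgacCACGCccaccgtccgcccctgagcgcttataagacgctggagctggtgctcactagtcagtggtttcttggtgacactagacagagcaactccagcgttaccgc
Car9 (chr4:43506776-43507075, plus strand): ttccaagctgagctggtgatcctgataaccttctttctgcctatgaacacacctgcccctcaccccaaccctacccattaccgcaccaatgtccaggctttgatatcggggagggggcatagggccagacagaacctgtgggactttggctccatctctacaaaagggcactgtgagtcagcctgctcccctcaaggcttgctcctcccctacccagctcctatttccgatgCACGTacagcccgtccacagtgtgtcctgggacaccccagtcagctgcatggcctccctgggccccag
The Ankrd37 window held 2 ACGTG and 2 GCGTG cores, the Egln3 window 1 ACGTG, the Adm window 2 GCGTG and the Car9 window 1 ACGTG. Of the 7 genes with an entry, 6 held ACGTG, 4 held GCGTG and 7 held either in at least 1 entry (Vegfa has more than 1 entry, of which the first held 0 of both). Over all 32851 promoter entries of the same length (27025 genes), 19.6% held ACGTG, 32.4% held GCGTG and 43.8% held either. These shares are per entry and the member counts per gene, so the 2 are not like measures. These matches describe letters only, since no binding was measured.

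Total counts were 16166515 to 17366295 per library, with 18575 to 19659 genes detected. The trimmed mean scaling factor (TMM) of flox 1 was 1.143, against 0.943 to 1.01 in the others, so that values in flox 1, given as CPM (a gene's counts relative to the scaled total of its library), are lower after scaling than before it. Hkdc1, the targeted gene, had 49 counts in flox 1, 22 in flox 2 and 1 in flox 3, and LKO 1, LKO 2 and LKO 3 had 10, 1 and 4. The 3 libraries with flox in their titles thus had 10 to 49 counts and the 3 with LKO in their titles 1 to 4. Hkdc1 followed the titles, and went against the genotype field, for the libraries labelled flox 3 and LKO 1. These counts are few, and 10 in LKO 1 lies close to 4 in LKO 3. Flox 1, flox 2 and LKO 1 also had the highest summed cholangiocyte markers (477, 362 and 169 CPM, against 33.9 to 79.9). Most of the sum in flox 1 came from 1 marker, Spp1 (428 of 477 CPM). The part of cholangiocytes in the Hkdc1 counts was not tested. Hepatocyte markers were abundant in every library (6 genes, summed 60200 to 88520 CPM). LKO 2 and LKO 3 also held adrenal transcripts: 9 adrenal cortex markers summed to 2584 CPM in LKO 2 and 271.8 in LKO 3, against 6.277 to 9.723 in the other 4 libraries.

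Per gene length, Epas1 and Vegfa were highest, and Adm, Ankrd37, Ndrg1 and Car9 were low. Mean deposited FPKM over the 6 libraries was 58.5 ± 7.69 for Epas1 (SD, n = 6 here and in the rest of this paragraph), which encodes HIF-2 alpha, the alpha subunit strong in endothelium and hepatocytes. Vegfa, the vascular endothelial growth factor, averaged 51.3 ± 7.77 FPKM, and the ranges of the 2 genes overlapped (48.2 to 67.6 and 42.3 to 64.4). Egln1, the main HIF prolyl hydroxylase, averaged 12.7 ± 1.07 FPKM, above Hif1a, the HIF-1 alpha subunit, at 8.02 ± 1.12, and the ranges of those 2 did not overlap. Egln3, a hydroxylase that is itself a HIF target, averaged 7.89 ± 2.93 FPKM and overlapped Hif1a. Adm, the vasodilator adrenomedullin, was at 2.02 ± 0.781, Ankrd37, a small ankyrin repeat protein induced by HIF, at 1.75 ± 2.62, and Ndrg1, a stress-responsive cytoplasmic protein, at 1.74 ± 0.49 FPKM, with overlapping ranges. Car9, the cell-surface carbonic anhydrase used as a hypoxia marker, was lowest at 0.274 ± 0.102 FPKM. Ankrd37 alone had an SD above its mean.

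Ankrd37 (ENSMUSG00000050914, GRCm39 chromosome 8, 46449939 to 46458744, minus strand) had 184 counts in flox 1 (95% exact Poisson interval 158.4 to 212.6). It had 15 counts in flox 2 (8.39 to 24.7), 18 in flox 3 (10.7 to 28.4), 10 in LKO 1 (4.79 to 18.4), 13 in LKO 2 (6.92 to 22.2) and 32 in LKO 3 (21.9 to 45.2). These intervals cover counting error only. Scaled, flox 1 stood at 9.52 CPM and the other 5 libraries at 0.592 to 2.03 CPM, so flox 1 was 10.2 times the median of the other 5 and 4.69 times the next library, LKO 3. Of 14310 genes tested, 0.154% had a higher ratio of flox 1 to the median of the others. Of all members, only Ankrd37 was at least 2-fold above that median in flox 1, a height that 7.78% of tested genes reached.

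Ankrd37 overlaps neighbours on the other strand, and the strand setting of the counting is not given, so reads of such pairs cannot be told apart. Ufsp2, which shares 57 bases with it, was at 0.968 times the median of the others in flox 1. Lrp2bp, which shares 6405 bases, was at 0.777 times, with 48 counts in flox 1 and 80 in LKO 3. Both neighbours were thus below the median of the others in flox 1.

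**Figure D1:**
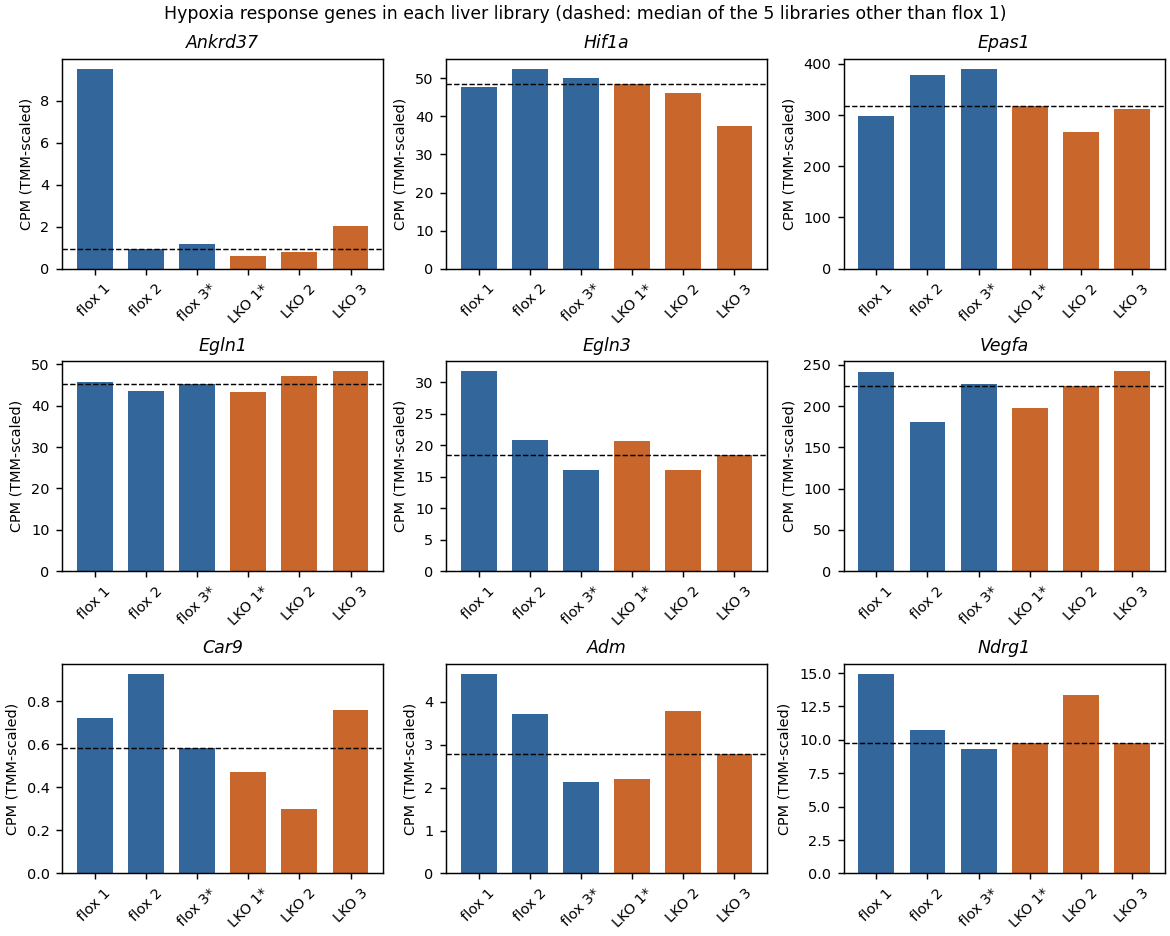
CPM after TMM scaling (y axis, linear from 0) of each of the 9 hypoxia response genes in each of the 6 libraries (x axis), blue for flox and orange for LKO by the genotype field, with an asterisk where title and genotype field disagree. Each bar is 1 library and the dashed line is the median of the 5 libraries other than flox 1. Ankrd37 stands at 9.52 CPM in flox 1 and at 0.592 to 2.03 elsewhere, whereas Hif1a, Epas1, Egln1 and Vegfa differ little between libraries.

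The prolyl hydroxylases differed from each other in flox 1. Egln3 was at 31.8 CPM in flox 1, 20.8 in flox 2 and 16.1 in flox 3, and LKO 1 to 3 were at 16.04 to 20.7. Flox 1 was thus highest, at 1.72 times the median of the other 5, while the other 5 libraries lay close together. Egln1 was at 45.7, 43.5 and 45.2 CPM in flox 1 to 3 and at 43.3, 47.2 and 48.3 in LKO 1 to 3. Its highest library was 1.12 times its lowest, the smallest spread of the 9 genes, and flox 1 was at 1.01 times the median of the others.

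Among the secreted and cytoplasmic targets, Adm and Ndrg1 were moderately higher in flox 1. Adm was at 4.65, 3.71 and 2.14 CPM in flox 1 to 3 and at 2.19, 3.80 and 2.79 in LKO 1 to 3, with flox 1 at 1.67 times the median of the others. Ndrg1 was at 14.9, 10.8 and 9.34 CPM in flox 1 to 3 and at 9.77, 13.4 and 9.76 in LKO 1 to 3, with flox 1 at 1.53 times. Of all tested genes 11.5% had a higher ratio than Egln3, 12.4% a higher one than Adm and 15.3% a higher one than Ndrg1. For both genes LKO 2, the library with the most adrenal transcripts, was second, and the part of those transcripts in these levels was not tested. Adm lies wholly within Gm28863 on the other strand, which had 1 to 11 counts per library.

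Vegfa and Car9 did not stand out in flox 1. Vegfa was at 241, 181 and 227 CPM in flox 1 to 3 and at 198, 225 and 242 in LKO 1 to 3, so flox 1 and LKO 3 were level at the top. Car9 was near the limit of detection, with 14, 15 and 9 counts in the flox libraries and 8, 5 and 12 in the LKO libraries, in order. It shares 1798 bases with Gm12454 on the other strand, which had 5 to 12 counts per library. Without the strand setting, reads of this pair cannot be told apart. The counting intervals of all 6 libraries overlapped for Car9 (lowest 1.62 to 11.7 in LKO 2, highest 8.39 to 24.7 in flox 2), so a difference in Car9 could be missed at this depth.

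The HIF alpha subunits were not higher in flox 1 at the mRNA level. Hif1a was at 47.7, 52.5 and 50.03 CPM in flox 1 to 3 and at 48.6, 46.3 and 37.6 in LKO 1 to 3. Epas1 was at 299, 378 and 390 CPM in flox 1 to 3 and at 319, 267 and 312 in LKO 1 to 3. Flox 1 was below the median of the others for both (0.981 and 0.939 times). The alpha subunits are controlled mainly through protein stability, which was not measured.

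Leaving out Ankrd37, whose place was fixed by the choice of the set, flox 1 was the highest library for 3 of the other 8 genes (Egln3, Adm and Ndrg1), beside 26% of the 14310 tested genes. Of these 8 genes 0 were at least 2-fold above the median of the others in flox 1 after TMM scaling. Both counts depended on scaling. With total counts alone, Egln3 and Adm were at 2.08 and 2.02 times the median of the others. With total counts alone, or with the deposited FPKM, flox 1 was highest for 6 of 8, with Hif1a, Egln1 and Vegfa added. With total counts alone, however, the median log2 ratio of flox 1 to the others over all tested genes was 0.23, against 0.00023 with TMM. Relative to that median, the TMM log2 ratios of Ankrd37, Egln3, Adm and Ndrg1 were 3.36, 0.78, 0.74 and 0.61. Flox 2 was highest for 2 members (Hif1a and Car9), flox 3 for 1 (Epas1), LKO 3 for 2 (Vegfa and Egln1), and LKO 1 and LKO 2 for 0. The count of 3 of 8 in flox 1 was also 3 without LKO 2 and without flox 3, and 4 without LKO 3.

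**Figure D2:**
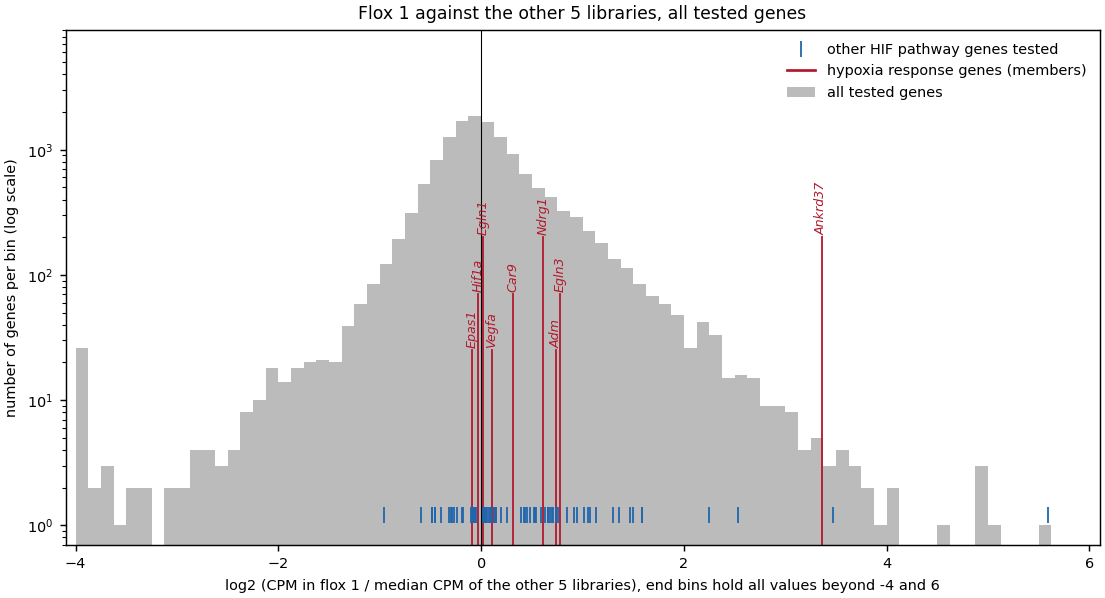
Number of genes (y axis, log scale) by the log2 ratio of CPM in flox 1 to the median CPM of the other 5 libraries (x axis) for all 14310 tested genes in grey, with the 9 hypoxia response genes as red lines and the tested genes of the wider HIF pathway as blue ticks. Ankrd37 lies far to the right at a ratio of 10.2, Egln3, Adm and Ndrg1 lie between 1.53 and 1.72, below the 90th percentile of all tested genes (1.82), and the other members lie closer to a ratio of 1.

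The wider pathway was read from 85 other genes: regulators of HIF and targets known from cultured cells and tissues, of which 76 were tested. This list was chosen with earlier results of these data known, so its shares are descriptions only. Flox 1 was highest for 29 of the 76 (38.2%, beside 26% of all tested genes) and at least 2-fold above the median of the others for 14 (18.4%, beside 7.78%). It was lowest for 11 of them, beside 26.7% of all tested genes. Of 14 secreted, vascular and iron genes 8 were highest in flox 1 and 6 were at least 2-fold above the others. Of 22 glucose uptake and glycolysis genes these counts were 11 and 4, and of 11 hydroxylase, demethylase and matrix enzyme genes 5 and 2. In these 3 lists, in the same order, flox 1 was lowest for 1, 3 and 1 genes. It was below the median of the others for 2, 7 and 2. Of 10 mitochondrial, survival and autophagy genes 1 was highest, and of 13 regulators and 6 pH and transcription genes 2 each. The deposited annotation puts 94 genes in the KEGG HIF-1 signaling pathway, of which 36 are also members or among the 85. Among the 83 of them tested, flox 1 was highest for 29 (34.9%, beside 26%) and lowest for 18. It was at least 2-fold above for 6 (7.23%), near the 7.78% of all tested genes.

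The genes with high ratios, named here by that ratio, included some matrix, secreted and glycolytic genes, while other glycolytic genes were below the median of the others in flox 1. The collagen crosslinking enzyme gene Lox was at 6.57 CPM in flox 1 and 0.130 to 2.04 elsewhere, and thus at least 11-fold above the median of the others, as 0.133% of tested genes were. Its relative Loxl2 was at 14.1 CPM in flox 1 and 3.56 to 10.8 elsewhere. The secreted glycoprotein gene Stc2 was at 3.67 CPM in flox 1 and 0.181 to 1.42 elsewhere, and the early response gene Ier3 at 11.4 and 1.81 to 2.91. The chemokine receptor gene Cxcr4 (3.01 times the median of the others), the lactate transporter gene Slc16a3 (3.00), the phosphofructokinase gene Pfkp (2.77), Pfkfb4 (2.56), which sets the level of an activator of glycolysis, and the growth factor gene Pdgfb (2.46) followed.

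Epo, the erythropoietin gene, a classical HIF target, was chosen after its values were seen and did not meet the filter on low counts. It had 24 counts in flox 1 (95% exact Poisson interval 15.4 to 35.7) and 0 in each of the other 5 libraries. Against a floor of 3 counts per library, flox 1 was at least 6.38-fold higher. In adults erythropoietin comes mainly from the kidney. Of 6 kidney markers, a list also chosen after Epo was seen, 4 were at 0 in flox 1 and 2 to 4 in each of the others. Their sum was 1.71 CPM in flox 1 against 1.30 to 2.72 in the others. The source of the Epo counts was not tested.

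Other HIF pathway genes were at their lowest in flox 1. Angptl4, an inhibitor of lipoprotein lipase, was at 92.4 CPM in flox 1, 180 in flox 2 and 207 in flox 3, and at 99.6, 103 and 187 in LKO 1 to 3. Pdk1, the kinase that restrains pyruvate entry into mitochondria, was at 84.0 CPM in flox 1 and 108 to 200 elsewhere. Higd1a, a mitochondrial inner membrane protein gene (0.715 times the median of the others), Zfp395 (0.665) and the regulator Egln2, the third prolyl hydroxylase gene (0.729), were also lowest in flox 1. The height of Ankrd37 in flox 1 was therefore accompanied by some targets and not by others.

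**Figure D3:**
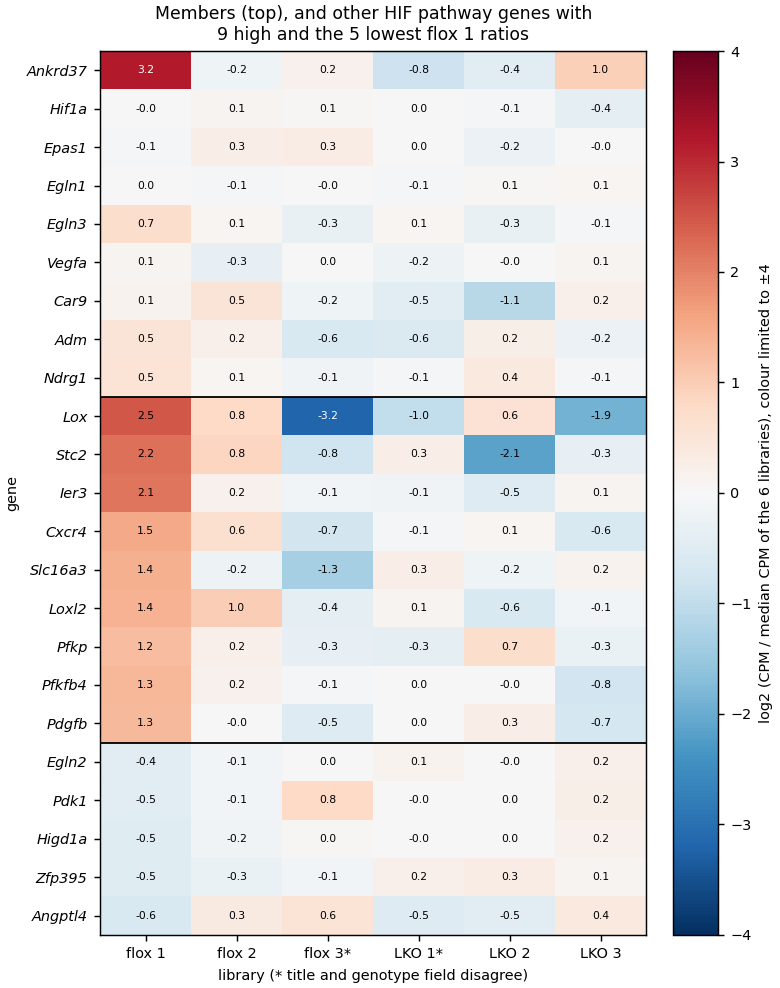
Log2 ratio of CPM in each library to the median of the 6 libraries (colour, limited to ±4, and printed in each cell) for the 9 members (top block), 9 other HIF pathway genes with high flox 1 ratios (middle) and the 5 with the lowest (bottom), in the 6 libraries (x axis). In the middle block the flox 1 column is the highest for every gene, and Lox has the strongest colour there. The middle and bottom blocks were chosen by that ratio.

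Marker genes of several cell types moved with flox 1. All 8 cholangiocyte markers were highest there, with a sum of 477 CPM against 33.9 to 362 in the other libraries, and so were all 8 stellate cell markers (1193 against 296 to 843 CPM). The cholangiocyte sum was mostly Spp1, at 428 CPM in flox 1 and 26.5 to 335 elsewhere, so it mainly follows that gene. Macrophage markers summed to 1585 CPM in flox 1 and 836 to 1233 elsewhere, with 4 of 8 highest there (Lyz2, Cd68, Trem2 and Gpnmb). The macrophage list was mixed, since Clec4f, a Kupffer cell marker, was lowest in flox 1 (0.599 times the median of the others), and Cd5l and Csf1r were at 0.978 and 1.06 times. None of the markers of these 3 lists was at 0 in any library. Hepatocyte markers (60200 against 66990 to 88520 CPM) and pericentral hepatocyte markers (4948 against 7324 to 11470 CPM) had their lowest sums in flox 1, as had sinusoidal endothelial markers (481 against 558 to 638 CPM). Cyp2e1 alone gave 3056 of the 4948 CPM. The pericentral and endothelial lists were mixed too. Rhbg and Axin2 (1.29 and 1.02 times the median of the others), and Lyve1 and Stab1 (1.29 and 1.02), were above that median in flox 1. The other markers of both lists were below it. The part of these cell types in the levels of Ankrd37, Egln3 and the other genes was not tested, and in bulk tissue more cells of a type and more RNA per cell cannot be told apart. Flox 2 had the second highest cholangiocyte and stellate sums (362 and 843 CPM), both below those of flox 1. Its Ankrd37 was at 0.928 CPM, the median of the 5 libraries other than flox 1. These values come from 1 library, and how Ankrd37 relates to these sums was not tested.

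**Figure D4:**
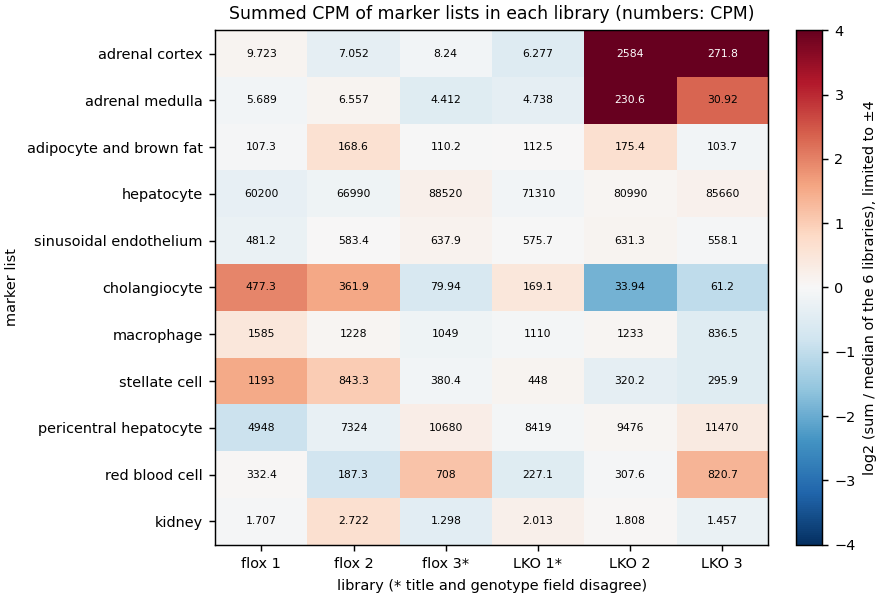
Summed CPM of each marker list (rows) in each library (columns), with the sum printed in the cell and the colour giving its log2 ratio to the median of the 6 libraries, limited to ±4. Flox 1 and flox 2 have the highest cholangiocyte and stellate cell sums (477 and 362, and 1193 and 843 CPM), and LKO 2 and LKO 3 the highest adrenal sums. In flox 1, Spp1 gave 428 of the 477 CPM.

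Over the 6 libraries, the genes whose log2(CPM + 1) followed Ankrd37 most closely among 13371 genes with a mean of at least 1 CPM were the cell cycle phosphatase gene Cdc25a (Pearson r = 0.995), the cofilin phosphatase gene Ssh1 (0.991), the kinase gene Jak2 (0.988), Tmem200b (0.985) and Rsbn1l (0.984). Of the genes ranked, 113 (0.845%) had an r of at least 0.9. Flox 1, whose level chose Ankrd37, is 1 of the 6 points and sets r. Without it r was 0.838 to 0.949 for these 5 genes over 5 libraries. Those 5 genes were picked by an r that includes the same 5 libraries. Cdc25a was at 8.74 CPM in flox 1 and 5.27 to 6.21 elsewhere. Among the members, Egln3 had the highest r with Ankrd37 (0.821), followed by Ndrg1 (0.631) and Adm (0.601), and Epas1 the lowest (-0.228). These r values are descriptions over 6 libraries, are also set by flox 1, and are not given without it. Among the other 5 libraries Ankrd37 was highest in LKO 3 (2.03 CPM). There Egln3 was at 18.5, Adm at 2.79 and Ndrg1 at 9.76 CPM, and LKO 3 was not the highest of the 5 for any of them.

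Between the genotypes, none of the 8 members tested passed the threshold in any of the 3 groupings. Of the 8 members other than Ankrd37, 0 passed by the genotype field (edgeR quasi-likelihood test, beside 0% of all genes), 0 in the 4 agreeing libraries (beside 0.622%, with 0.492% lower in LKO) and 0 by the titles (beside 0.356%, with 0.3% lower in LKO). At an unadjusted p under 0.05 the counts were 0, 1 and 1, beside 8.87%, 16.6% and 13.9% of all genes. DESeq2, limma-voom and limma-trend on FPKM also called 0 of the 8 in each grouping. The median log2 fold change, LKO against flox, over these 8 members was -0.21 by the genotype field, -0.24 in the agreeing libraries and -0.14 by the titles (values for all tested genes -0.0053, 0.0049 and 0.0042). These 3 groupings share libraries, and flox 1 is a flox library in each. With flox 1, 6 of the 8 had a negative value in each grouping. Without it, 3 had one by the genotype field, 5 in the agreeing libraries and 5 by the titles.

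In the TMM-scaled edgeR fits with no library left out, Egln3 was the 1 member under the unadjusted limit. By the titles it averaged 24.4 ± 6.35 CPM in flox and 16.9 ± 1.41 in LKO (SD, n = 3 each), and the difference on the log2 scale, LKO minus flox, was -0.54 ± 0.19 (SE; adjusted p = 0.25 by edgeR). In the agreeing libraries flox averaged 26.3 ± 7.76 CPM and LKO 17.3 ± 1.74 (SD, n = 2 each), and the log2 difference was -0.60 ± 0.23 (SE; adjusted p = 0.274 by edgeR). The groups did not overlap in either reading, as for 10.4% and 25.3% of all genes with flox higher. Without flox 1 the log2 fold changes were -0.29 and -0.27. By the genotype field the value was -0.32 (SE 0.25, edgeR adjusted p = 0.68) and 0.0052 without flox 1.

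The alpha subunit genes had small differences. Epas1 averaged 356 ± 49.3 CPM in flox and 299 ± 28.3 in LKO by the genotype field (SD, n = 3 each), a log2 difference of -0.25 ± 0.14 (SE; adjusted p = 0.601 by edgeR). By the titles it was -0.043 ± 0.17 (SE; adjusted p = 0.938 by edgeR). The log2 differences of Hif1a in the 3 groupings were -0.18, -0.25 and -0.15 (edgeR adjusted p = 0.636, 0.47 and 0.647), those of Egln1 0.047, 0.10 and 0.083 (0.871, 0.734 and 0.747), and those of Vegfa 0.034, 0.15 and 0.16 (0.945, 0.761 and 0.672). Car9, Adm and Ndrg1 had negative values in all 3 groupings, from -0.63 to -0.093, with SEs of 0.218 to 0.639 and edgeR adjusted p of 0.656 to 0.897. Without flox 1, Ndrg1 had positive values in all 3 groupings (0.13, 0.11 and 0.084). Adm was then at 0.0063, -0.17 and -0.010, and Car9 stayed negative. Epas1 was then at -0.35, -0.39 and -0.10 and Vegfa at 0.12, 0.36 and 0.29, all larger in size than with flox 1. Without flox 1 the unadjusted p was 0.026 for Epas1 by the genotype field (edgeR adjusted p = 0.881). By the titles it was 0.0364 for Vegfa and 0.0493 for Egln3 (edgeR adjusted p = 0.429 and 0.474). By the genotype field the groups overlapped for every member, beside 6.87% of all genes without overlap and flox higher and 7.47% with LKO higher. By the titles only Egln3 had no overlap, and none had LKO higher (beside 8.61%). In the agreeing libraries, Hif1a and Egln3 did not overlap with flox higher (beside 25.3% of all genes) and Egln1 did not overlap with LKO higher (beside 24%).

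The difference in Ankrd37 rested on flox 1. With it the log2 fold change was -1.79 by the genotype field, -1.90 in the agreeing libraries and -1.49 by the titles, values fixed in part by how the gene was chosen. Without flox 1, in libraries that did not choose it, the log2 fold changes were 0.11 (SE 0.61, edgeR adjusted p = 0.984), 0.59 (SE 0.86, edgeR adjusted p = 0.912) and 0.80 (SE 0.54, edgeR adjusted p = 0.688). All 3 had the opposite sign and did not pass. In the agreeing libraries 1 flox library then remains, and the fit takes its spread from the LKO libraries.

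**Figure D5:**
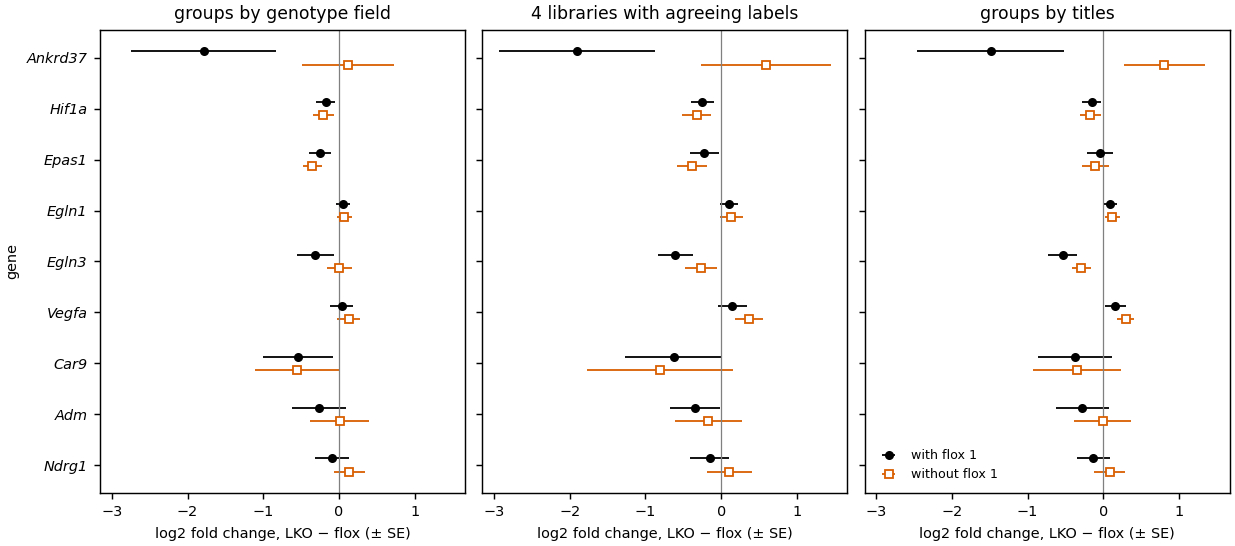
Log2 fold change of LKO against flox (x axis, points, with bars of 1 SE from edgeR) for each of the 9 genes (y axis) in the 3 groupings, with all libraries (black circles) and without flox 1 (orange squares). Ankrd37 moves from -1.79, -1.90 and -1.49 to 0.11, 0.59 and 0.80 when flox 1 is left out, and the other members move less.

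Of the other HIF pathway genes, 0 of 76 passed by the genotype field, 0 of 78 in the agreeing libraries and 0 of 76 by the titles (edgeR). At an unadjusted p under 0.05 there were 7, 16 and 8 (9.21%, 20.5% and 10.5%, beside 8.87%, 16.6% and 13.9% of all genes). DESeq2 called 0, 3 and 3 (0%, 3.85% and 3.95%), beside 0.245%, 5.02% and 4.4% of all genes, shares near the background. Bnip3, a mitophagy receptor gene, and Zfp395 had the lowest p by the genotype field (log2 differences of -0.48 ± 0.12 and 0.48 ± 0.12, SE; adjusted p = 0.554 by edgeR for both). Loxl2 had the lowest p in the agreeing libraries (log2 difference of -1.54 ± 0.28, SE; adjusted p = 0.0816 by edgeR) and by the titles (-1.27 ± 0.32, SE; adjusted p = 0.15 by edgeR). Its mean over the 4 agreeing libraries was 12.4 ± 2.37 CPM for flox against 4.28 ± 1.02 for LKO (SD, n = 2 each). The median log2 fold changes of these lists were -0.090, -0.079 and -0.045.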

How the data were processed

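RNA from 6 mouse liver libraries was measured by poly-A sequencing, per the labels' protocols. The authors deposited 1 table holding raw whole-number counts beside FPKM. The submitters' processing notes name featureCounts, HISAT, fastp, Cufflinks and StringTie, with the build GRCm39. Their versions, roles, annotation and strand setting were not stated. The deposited FPKM equals the count per length and per total count, where the implied length varied by no more than 0.036% across libraries in 7260 genes.

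Counts were tested with edgeR 4.0.16 (R 4.3.3, glmQLFit, glmQLFTest) on TMM-scaled libraries, keeping genes that passed filterByExpr with min.count at 10 and min.total.count at 15, with Benjamini-Hochberg adjustment over all genes and a threshold of 0.05. The SE is the log2 fold change divided by the square root of F. CPM uses TMM over 6 libraries. Single libraries were described by their ratio to the median of the other 5, with no test. The edgeR step was tested on simulated data. Every pair of libraries differed by more than sampling noise (chi-square per gene 17.3 to 74.6).

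Members and lists were chosen with earlier results of these data known. Of 180 list entries 2 did not match; of rows sharing a symbol, the one with most counts was used. Named genes were the 9 members and Hkdc1; of the other HIF pathway genes with a mean of at least 1 CPM, the 10 highest and 5 lowest by flox 1 ratio; in each comparison the 2 of lowest p where none passed; and the 5 most like Ankrd37. A gene that this rule names is not reported here by name, though counts over lists include it. Alternatives were other size factors and filters, DESeq2 1.42.0, limma 3.58.1 (voom, or trend on log2(FPKM + 1) and log2(FPKM + 0.1)) and leaving out each library. Promoter windows come from RefSeq (GRCm38.p6) by symbol and were not converted between builds.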

Additional observations from a re-analysis of the deposited data

How the results depend on the processing

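The count of 0 members called held in every grouping under each alternative run. By the genotype field, genes called over the whole table went from 0 to 35 by DESeq2 and to 1 by limma-trend with either pseudocount. In the agreeing libraries the 91 genes became 57 with upper-quartile factors, 1109 with no filter on low counts, 734 by DESeq2 and 44 by limma-voom, and 0 (without flox 1) to 759 (without LKO 2) when 1 library was left out (50 without flox 2, 630 without LKO 3). By the titles the 51 genes became 247 with no filter, 25 with a mean of at least 1 CPM, 629 by DESeq2, 24 by limma-voom and 30 by limma-trend on log2(FPKM + 1), and 0 (without flox 2) to 239 (without LKO 1) when 1 library was left out (20 without flox 1, 29 without flox 3, 4 without LKO 2, 1 without LKO 3). Of the other HIF pathway genes, the count of 0 in the agreeing libraries became 10 with no filter and 3 by DESeq2 (Igfbp1 and Loxl2 among them), and 0 to 7 (without LKO 2) without 1 library. By the titles it became 3 by DESeq2 (Stc2, Igfbp1 and Loxl2), and 0 to 1 (Loxl2, without LKO 1). The cause of these changes was not tested.

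With library size alone or the deposited FPKM, 7 members in place of 4, Ankrd37 included, and 52 other HIF pathway genes in place of 29 were highest in flox 1, since flox 1 then lies above the other libraries for most genes.

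Log2 fold changes near 0 changed sign. With library size alone Egln1 was at -0.032, -0.038 and -0.019 (genotype field, agreeing libraries, titles) and Vegfa at -0.051 and -0.0057 (genotype field, agreeing libraries). By limma-trend on log2(FPKM + 1) Egln1 was at -0.027, -0.031 and -0.014 and Vegfa at -0.035 by the genotype field, and with the pseudocount of 0.1 at -0.029, -0.033 and -0.015, and -0.035. Leaving out 1 library gave ranges of -0.51 to 0.0052 for Egln3, -0.51 to 0.0063 for Adm, -0.26 to 0.13 for Ndrg1 and -0.088 to 0.12 for Vegfa by the genotype field, of -0.39 to 0.11 for Ndrg1 and -0.057 to 0.36 for Vegfa in the agreeing libraries, and of -0.31 to 0.084 for Ndrg1 and -0.20 to 0.079 for Epas1 by the titles. No paired analysis was possible because the genotype field carries no replicate numbers and the titles share none between groups.

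Depth limits what can be read from Car9 and Epo, which had at most 15 and 24 counts per library.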
